A study of Mus musculus with 5 samples.

Results

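Histone genes code for the proteins around which nuclear DNA is wound. They were taken as every gene whose symbol in the 5 deposited tables begins with Hist1h to Hist4h, H2af, H1f or H3f, which gave 67 of 11924 listed genes. Of these, 59 are clustered histone genes, with symbols that begin with Hist: 5 for the linker histone H1, 15 for H2A, 16 for H2B, 10 for H3 and 13 for H4. On GRCm38, 49 of the 59 lie on chromosome 13, 7 on chromosome 3, 2 on chromosome 11 and 1 on chromosome 6. The other 8 carry replacement names: H2afz, H2afv, H2afj, H2afy, H2afx, H1f0, H1fx and H3f3aos, the last an antisense transcript of H3f3a. H3f3a and H3f3b, the genes of the replacement histone H3, are not among the listed genes and could not be analysed here.

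The core histones, H2A, H2B, H3 and H4, form the nucleosome, and H1 binds the DNA between nucleosomes. Clustered genes are mainly transcribed while DNA is copied, and their transcripts usually end in a short stem-loop in place of a poly(A) tail. Replacement histones are made throughout the cell cycle from polyadenylated transcripts, so that a T cell that does not divide still exchanges them in its chromatin. The libraries were primed on poly(A), which bears on which clustered transcripts can be seen at all.

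The cells were sorted as CD4+CD45.1+ SMARTA cells, a label for T cells of C57BL/6 genotype with a shared transgenic receptor. Whether each cell carried that receptor was not checked here. Each group was 1 droplet library read from the 3′ end of transcripts. A library with both treatments came from mice given diphtheria toxin to deplete regulatory T cells (Tregs) on days 0 and 2 and anti-CTLA4 antibody on days 0, 2 and 5. A Treg-depleted library had the toxin alone and an anti-CTLA4 library the antibody alone, and an untreated library had neither by its labels. These 4 were sorted on day 8 of tumor growth out of the inguinal lymph node, and the last library held naive cells from spleen. The labels name MC38 in one protocol and PyMG in another as the tumor, they name no allele that makes Tregs sensitive to the toxin, and the isotype antibody of the series text stands on no library. How many mice gave each library is not given in the sources used here.

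The libraries held 4343 cells with both treatments, 2186 after Treg depletion, 4566 with anti-CTLA4, 1099 untreated and 7955 naive, and the median cell had 2468, 5208.5, 4797, 3133 and 1683 UMIs (unique molecular identifiers, each standing for a captured transcript) in that order. Library totals ran between 3825958 and 27967273 UMIs, and 48 cell barcodes occurred in 2 or more libraries. Of 8 T cell markers 4 are listed (Cd4, Cd5, Cd6 and Cd2), and they summed to between 2377 and 3310 CPM in every library, where CPM is a gene's UMIs scaled by the library's total over the listed genes. Foxp3 stood at 348 CPM with both treatments and 379 after Treg depletion, against 4.25 with anti-CTLA4, 7.84 in untreated and 8.21 in naive cells, so cells sorted from Treg-depleted mice carried the Treg transcription factor. Mki67, a marker of dividing cells, had 519, 581, 358, 68.7 and 2.03 CPM in the same order. All 7 B cell and 8 myeloid markers are listed, with sums of 24.0 to 81.8 and 242 to 393 CPM, and the 4 plasma cell markers summed to 231, 434, 165, 69.0 and 78.0 CPM in that order; the part of these cells in the histone values below was measured only by leaving such cells out.

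With 1 library per group no comparison has a replicate check and none was tested. Brackets after a ratio hold its exact 95% interval, which covers counting error only. A gene counted as higher or lower from 1.5-fold, if its mean over the 5 libraries reached 5 CPM and both sides of the comparison together held 30 UMIs. Of the histone genes 51 reached that mean, 45 clustered and 6 replacement, and the other 16 are given by their levels alone. The share of all genes that passed 1.5-fold stands beside the counts of clustered genes in each comparison at these settings, and counts of histone genes are read against it.

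Because reads come from transcript ends, genes with the same end cannot be told apart by them. In GENCODE M21 (GRCm38), 33 of the 59 clustered genes share at least 50% of the 31-base words in the last 300 bases of their transcripts with another gene: 1 for H1, 10 for H2A, 9 for H2B, 7 for H3 and 6 for H4. For 7 of the 33 every such word is shared, and none of the 8 replacement genes reaches 50%. Of the 59 clustered genes, 27 share any word in the last 100 bases. A word counted as shared wherever it lay in the other gene's transcripts. The 33 genes, called genes with shared ends below, thus need not have the same end. How the authors' counting treated reads that fit several genes is not given in the sources used here, so single values of these 33 genes are uncertain. Hist1h2ap (chr13:21833026-21833507, minus strand) shares all words of its end, with 25 genes in all. Hist1h2ae (chr13:23570517-23571220, minus strand) shares 27.4% of the words in the last 300 bases and none in the last 100. Hist1h1b (chr13:21779883-21780625, minus strand) shares 2.22%, and Hist1h1c and Hist1h4d none. Hist1h1e (chr13:23620629-23622558, minus strand) shares all of them, with annotated transcripts of Hist1h2be and of an unnamed gene model. The annotated ends of Hist1h2be itself share no word with another gene.

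Annotated ends also differ in how far they run past the stem-loop, the processing signal of replication-dependent histone transcripts. A stem-loop was found in 42 clustered genes and in H2afx; 20 of the 42 have an annotated end over 100 bases past it and 22 one within 100 bases. The ends of 5 genes show both kinds, with the stem-loop in capitals.
Hist1h2ap (end 3 bases past the stem-loop): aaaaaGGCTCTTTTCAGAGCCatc
Hist1h2ae (151 bases past it): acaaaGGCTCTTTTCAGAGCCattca
Hist1h4d (770 bases past it): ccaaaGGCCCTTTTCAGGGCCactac
Hist1h1e (1153 bases past it): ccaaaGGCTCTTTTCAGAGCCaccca
H2afx (822 bases past it): acaaaGGCCCTTTTAAGGGCCaccac
The form of Hist1h2ap, Hist1h2ae and Hist1h1e was found in 23 clustered genes, and that of Hist1h4d in 7. H2afx, whose product marks DNA breaks when phosphorylated, has its own form and a long end. No stem-loop was found in the annotated transcript of Hist1h1b. Bases past an annotated end were not searched, so a gene without a stem-loop here may have one beyond it.

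Promoters of clustered genes carry short elements through which they are switched on together. The 250 bases before the start are shown for 5 genes that had the most UMIs by a rule on histone type, from RefSeq on GRCm38.p6, with 3 elements on either strand in capitals: the box with the letters CCAAT, the TATA box searched as TATAAA, and the octamer searched as ATTTGCAT.
Hist1h1b: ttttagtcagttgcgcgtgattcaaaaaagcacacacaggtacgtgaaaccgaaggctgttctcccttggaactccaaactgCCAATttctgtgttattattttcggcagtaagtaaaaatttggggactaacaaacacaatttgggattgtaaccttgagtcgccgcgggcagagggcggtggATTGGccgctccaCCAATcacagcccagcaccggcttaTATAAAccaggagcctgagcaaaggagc
Hist1h1e: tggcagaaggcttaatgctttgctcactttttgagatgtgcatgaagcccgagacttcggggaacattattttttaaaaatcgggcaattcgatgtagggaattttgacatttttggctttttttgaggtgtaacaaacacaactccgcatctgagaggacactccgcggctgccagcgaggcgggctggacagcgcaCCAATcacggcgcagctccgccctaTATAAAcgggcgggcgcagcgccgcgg
Hist1h2ae: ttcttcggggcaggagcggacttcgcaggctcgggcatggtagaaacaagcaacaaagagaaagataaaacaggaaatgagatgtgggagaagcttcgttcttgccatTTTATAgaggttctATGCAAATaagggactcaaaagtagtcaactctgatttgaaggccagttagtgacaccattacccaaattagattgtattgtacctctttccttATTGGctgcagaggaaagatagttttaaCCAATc
Hist1h2ap: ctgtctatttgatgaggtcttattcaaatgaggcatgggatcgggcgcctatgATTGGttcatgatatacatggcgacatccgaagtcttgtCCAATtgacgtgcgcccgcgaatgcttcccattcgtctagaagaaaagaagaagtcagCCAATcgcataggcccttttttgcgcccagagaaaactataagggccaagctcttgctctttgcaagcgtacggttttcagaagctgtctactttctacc
H2afz: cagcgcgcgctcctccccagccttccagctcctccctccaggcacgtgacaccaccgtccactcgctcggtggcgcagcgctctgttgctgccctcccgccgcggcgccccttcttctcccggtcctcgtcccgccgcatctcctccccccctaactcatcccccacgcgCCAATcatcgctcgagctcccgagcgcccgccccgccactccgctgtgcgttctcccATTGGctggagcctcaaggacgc
These windows are chr13:21780626-21780875, chr13:23622559-23622808, chr13:23571221-23571470 and chr13:21833476-21833725 on the minus strand and chr3:137864237-137864486 on the plus strand. Hist1h1b, Hist1h1e and Hist1h2ae hold TATAAA and CCAAT, Hist1h2ae also holds the octamer, and Hist1h2ap and H2afz hold CCAAT alone. In the Hist1h2ae window TATAAA and the octamer read on the opposite strand, and the window reaches past the start of Hist1h2bg (23571396, plus strand). Which of these genes the elements serve was not tested. In windows that also take in the 50 bases after the start, CCAAT was found in 46 of 55 promoters of 54 clustered genes (83.6%) against 37.4% of all 32544 promoters: in each promoter of H1, H2A, H2B and H3 genes and in 3 of 12 of H4 genes. TATAAA was found in 32 of the 55 (58.2%) against 13.6% of all promoters, and in 0 of 6 promoters of replacement genes. The octamer was found in 11 (20.0%) against 1.75% of all, in 5 of 15 H2A and 6 of 15 H2B promoters. Some clustered genes stand head to head, so that 7 pairs of these windows overlap and an element can count for both genes of a pair. A match is a description of the letters alone.

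Clustered histone genes summed to 3391 CPM with both treatments, 3223 CPM after Treg depletion, 2921 CPM with anti-CTLA4, 1034 CPM in untreated and 498 CPM in naive cells. The 3 treated libraries lay close together and far above the untreated one, which in turn lay above the naive library. Replacement genes summed to 6301, 6675, 5694, 3308 and 2610.0 CPM in the same order, a narrower range. In a library's sum, more cells of a kind and more transcripts per cell cannot be told apart. The highest value was in the library with both treatments for 42 of the 59 clustered genes and in the anti-CTLA4 library for 11. It was in the Treg-depleted and naive libraries for 3 each. The matching shares of all genes are not given here, so these counts do not show whether clustered genes differ from other genes. Of the 59, 45 reached the minimum mean CPM. For the rest, the highest library can rest on few UMIs. In naive cells 6 clustered genes had no UMI, and in untreated cells 2.

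**Figure D1:**
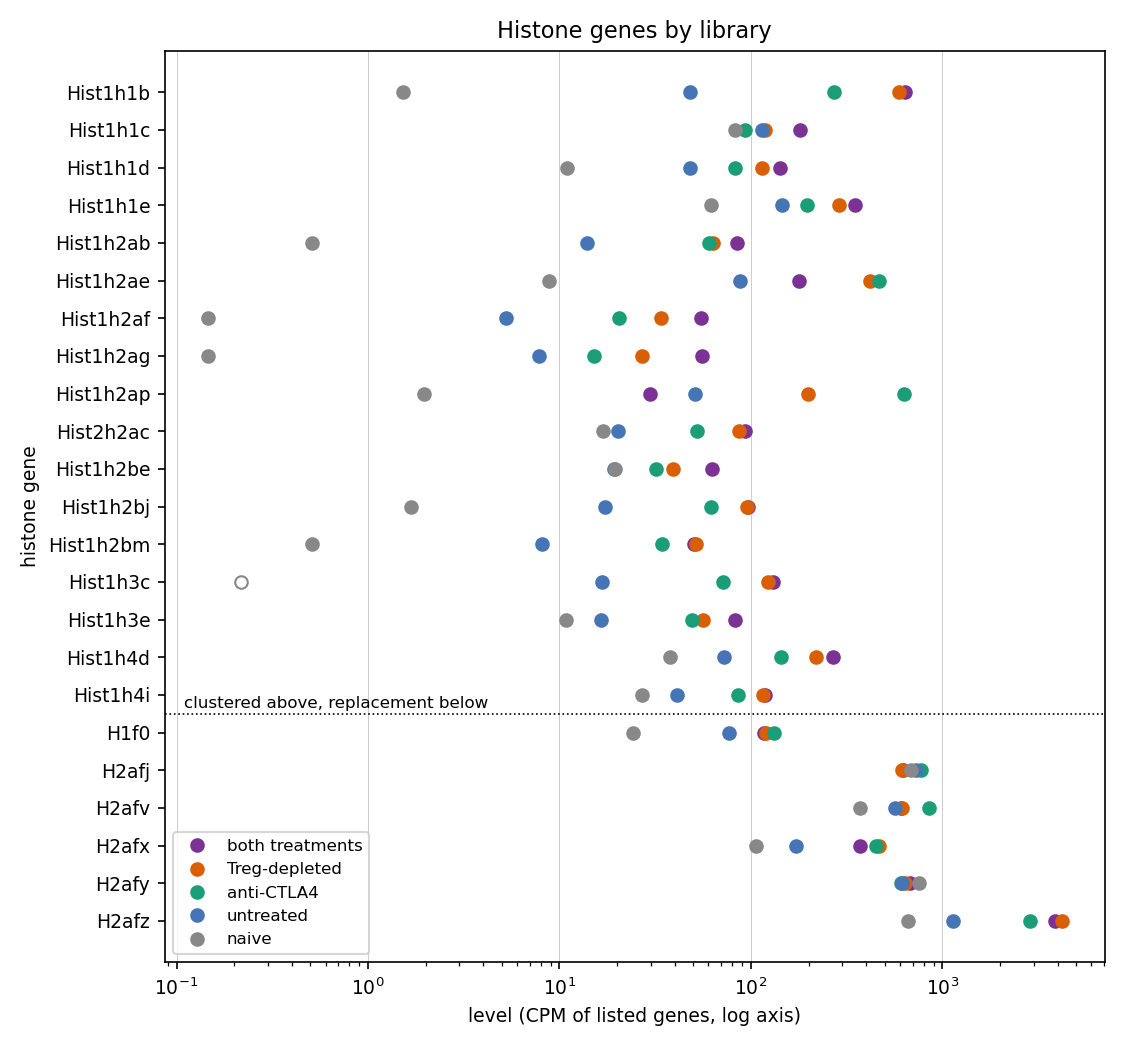
Level of the 23 histone genes that reached 50 CPM in some library, in CPM on a log axis, with 1 point per library and no error bars; the open circle is the floor of 3 UMIs for Hist1h3c, which had none in naive cells. Most clustered genes span more than the replacement genes do, with Hist1h1b at 634 CPM with both treatments and 1.53 in naive cells and H2afy at 678 and 755.

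Among the linker histone genes, Hist1h1b had 634 CPM with both treatments, 593 CPM after Treg depletion, 273 CPM with anti-CTLA4, 48.1 CPM in untreated and 1.53 CPM in naive cells. It is the clustered gene with the most UMIs in the Treg-depleted libraries, and its order of libraries is that of Mki67 but for the depleted libraries, which change places. Its ratio was 31.5 (20.0 to 52.2) for untreated over naive cells, 5.68 (4.91 to 6.61) for anti-CTLA4 over untreated, 12.3 (10.7 to 14.3) for Treg depletion over untreated and 13.2 (11.4 to 15.3) for both treatments over untreated. Hist1h1e had 348 CPM with both treatments, 289 CPM after Treg depletion, 197 CPM with anti-CTLA4, 145 CPM in untreated and 62.1 CPM in naive cells. Hist1h1d had 142 CPM with both treatments, 115 CPM after Treg depletion, 82.1 CPM with anti-CTLA4, 48.4 CPM in untreated and 10.9 CPM in naive cells. Both followed the order of Hist1h1b over a smaller span. Hist1h1c differed from them, with 180.1 CPM with both treatments, 119 CPM after Treg depletion, 92.8 CPM with anti-CTLA4, 114 CPM in untreated and 82.5 CPM in naive cells. Its ratio was 0.812 (0.733 to 0.901) for anti-CTLA4 over untreated and 1.52 (1.43 to 1.61) for both treatments over Treg depletion, so the antibody libraries lay below their comparison in one case and above it in the other, and only the second passed 1.5-fold. Hist1h1a stayed under 50 CPM in each library.

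Among H2A genes, Hist1h2ap and Hist1h2ae stood apart in where they were high. Hist1h2ap had 29.7 CPM with both treatments, 199 CPM after Treg depletion, 628 CPM with anti-CTLA4, 51.0 CPM in untreated and 1.96 CPM in naive cells. Hist1h2ae had 178 CPM with both treatments, 421 CPM after Treg depletion, 468 CPM with anti-CTLA4, 87.6 CPM in untreated and 8.86 CPM in naive cells. Both were highest with the antibody alone, and in the library with both treatments Hist1h2ap was below even the untreated one, at 0.583 (0.493 to 0.691) of it, although without the 5% of cells with the most UMIs in each library that ratio was 1.05. For both treatments over Treg depletion the ratio was 0.149 (0.135 to 0.164) for Hist1h2ap and 0.424 (0.406 to 0.443) for Hist1h2ae. Other H2A genes ran the other way in that comparison: Hist1h2ag had 55.3 CPM with both treatments, 27.1 CPM after Treg depletion, 15.2 CPM with anti-CTLA4, 7.84 CPM in untreated and 0.145 CPM in naive cells. Hist1h2af had 55.0 CPM with both treatments, 33.7 CPM after Treg depletion, 20.5 CPM with anti-CTLA4, 5.23 CPM in untreated and 0.145 CPM in naive cells. Hist1h2ab had 84.8 CPM with both treatments, 63.5 CPM after Treg depletion, 60.7 CPM with anti-CTLA4, 13.9 CPM in untreated and 0.508 CPM in naive cells. These 3 share 72.2%, 81.1% and 72.2% of the words in their last 300 bases with other genes in the order named. In the last 100 bases Hist1h2ag and Hist1h2ab share none, like Hist1h2ae, and Hist1h2af shares 71.4%. Hist2h2ac, on chromosome 3, had 92.9 CPM with both treatments, 86.6 CPM after Treg depletion, 52.3 CPM with anti-CTLA4, 20.1 CPM in untreated and 16.9 CPM in naive cells, which keeps the order of the library sums.

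Among H2B genes, Hist1h2bj had 96.3 CPM with both treatments, 95.8 CPM after Treg depletion, 61.7 CPM with anti-CTLA4, 17.3 CPM in untreated and 1.67 CPM in naive cells. Hist1h2bm had 50.4 CPM with both treatments, 51.9 CPM after Treg depletion, 34.4 CPM with anti-CTLA4, 8.10 CPM in untreated and 0.508 CPM in naive cells. Hist1h2be had 63.0 CPM with both treatments, 39.4 CPM after Treg depletion, 32.0 CPM with anti-CTLA4, 19.3 CPM in untreated and 19.5 CPM in naive cells. Hist1h2bj and Hist1h2bm were higher in untreated than in naive cells, at 10.3 (6.34 to 17.4) and 15.9 (6.88 to 42.9), whereas the interval for Hist1h2be held 1, at 0.990 (0.755 to 1.28). Among H3 genes, Hist1h3c had 129.9 CPM with both treatments, 122 CPM after Treg depletion, 71.9 CPM with anti-CTLA4, 16.7 CPM in untreated and 0 CPM in naive cells, and against the floor of 3 UMIs (0.218 CPM) in the naive library untreated cells were at least 76.8-fold higher. Hist1h3e had 82.4 CPM with both treatments, 56.5 CPM after Treg depletion, 49.2 CPM with anti-CTLA4, 16.5 CPM in untreated and 10.8 CPM in naive cells. Of H4 genes, Hist1h4d had 269 CPM with both treatments, 219 CPM after Treg depletion, 144 CPM with anti-CTLA4, 72.7 CPM in untreated and 37.8 CPM in naive cells. Hist1h4i had 118 CPM with both treatments, 115 CPM after Treg depletion, 85.3 CPM with anti-CTLA4, 41.0 CPM in untreated and 26.9 CPM in naive cells. These H3 and H4 genes named here kept the order of the library sums.

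The other 42 clustered genes had their highest library value between 3.08 and 49.9 CPM. Hist3h2a, Hist3h2ba and Hist2h4 were the 3 whose highest value was in naive cells, and are named here after their values had been seen. Hist3h2a had 13 CPM with both treatments, 8.85 CPM after Treg depletion, 11.8 CPM with anti-CTLA4, 13.3 CPM in untreated and 34.0 CPM in naive cells. Hist3h2ba had 29.3 CPM with both treatments, 22.8 CPM after Treg depletion, 23.7 CPM with anti-CTLA4, 30.8 CPM in untreated and 34.6 CPM in naive cells. Hist2h4 had 15.2 CPM with both treatments, 11.6 CPM after Treg depletion, 7.51 CPM with anti-CTLA4, 9.41 CPM in untreated and 24.7 CPM in naive cells. They lie outside the large cluster on chromosome 13, Hist2h4 on chromosome 3 and the Hist3 pair on chromosome 11.

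Among replacement genes, H2afz, the gene of H2A.Z, which replaces H2A at promoters, had 3891 CPM with both treatments, 4217 CPM after Treg depletion, 2883 CPM with anti-CTLA4, 1141 CPM in untreated and 659 CPM in naive cells. H2afx had 373 CPM with both treatments, 468 CPM after Treg depletion, 450.1 CPM with anti-CTLA4, 171 CPM in untreated and 106 CPM in naive cells. H2afv, a close relative of H2afz, had 607 CPM with both treatments, 612 CPM after Treg depletion, 847 CPM with anti-CTLA4, 569 CPM in untreated and 373 CPM in naive cells. H2afz and H2afx were past 1.5-fold higher in all 3 treated libraries than in untreated cells, by 3.41 (3.31 to 3.52) and 2.18 (2.01 to 2.37) with both treatments, by 3.70 (3.58 to 3.81) and 2.73 (2.52 to 2.97) after Treg depletion and by 2.53 (2.45 to 2.61) and 2.63 (2.43 to 2.85) with anti-CTLA4. H1f0, a linker histone of cells that have stopped dividing, had 117 CPM with both treatments, 119 CPM after Treg depletion, 132 CPM with anti-CTLA4, 76.6 CPM in untreated and 24.3 CPM in naive cells. H2afy, the gene of macroH2A, had 678 CPM with both treatments, 640.1 CPM after Treg depletion, 609.5 CPM with anti-CTLA4, 616 CPM in untreated and 755 CPM in naive cells. H2afj had 626 CPM with both treatments, 612 CPM after Treg depletion, 769 CPM with anti-CTLA4, 731 CPM in untreated and 682 CPM in naive cells. H2afy and H2afj stayed within 1.5-fold in all 6 library comparisons. H1fx reached 5.22 CPM and H3f3aos 10.7 CPM at most, H3f3aos in naive cells.

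Counted over the groups, clustered genes shifted upward in the comparisons with untreated cells. For untreated over naive cells, 27 of 38 clustered genes that passed the filters were higher (16.5% of all genes) and 3 lower, namely Hist2h4, Hist3h2a and Hist1h2ac (18.8% of all genes). Tissue, tumor and time differ together between those libraries and cannot be told apart. For anti-CTLA4 over untreated, 32 of 45 clustered genes that passed the filters were higher (8.0% of all genes) and 0 lower (9.87% of all genes). For Treg depletion over untreated, 32 of 45 clustered genes that passed the filters were higher (12.9% of all genes) and 2 lower, Hist2h2be and Hist3h2a (33.8% of all genes). For both treatments over untreated, 38 of 45 clustered genes that passed the filters were higher (12.6% of all genes) and 1 lower, Hist1h2ap (22.5% of all genes). These 3 comparisons share the untreated library. The median log2 ratio of the clustered genes was 1.30, 1.31, 1.49 and 1.65 in the order given, beside -0.05, -0.09, -0.30 and -0.19 over all genes.

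The treated libraries differed less among themselves. For both treatments over Treg depletion, 12 of 45 clustered genes that passed the filters were higher (9.24% of all genes) and 2 lower, Hist1h2ap and Hist1h2ae (1.58% of all genes). For both treatments over anti-CTLA4, 24 of 45 clustered genes that passed the filters were higher (9.97% of all genes) and 3 lower, Hist1h2ap, Hist1h2ae and Hist1h2br (12.9% of all genes). The sum moved little, by 1.05 (1.04 to 1.06), which becomes 0.974 with TMM scaling and 0.972 with median-of-ratios scaling, and by 1.16 (1.15 to 1.17), with Hist1h2ap and Hist1h2ae lower and most others higher. Without this pair, left out after their values had been seen, the ratio was 1.22 (1.21 to 1.24) over Treg depletion and 1.74 (1.72 to 1.76) over anti-CTLA4. By type, both treatments over anti-CTLA4 gave 0.481 for H2A but 1.99 for H1, 1.52 for H2B, 1.64 for H3 and 1.57 for H4. For anti-CTLA4 over untreated the sums were 5.48 for H2A and between 1.79 and 2.56 for the other types.

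Of the 6 replacement genes past the filters, 4 were higher in untreated than in naive cells (H2afz, H2afx, H2afv and H1f0), beside 16.5% of all genes. H2afz, H2afx and H1f0, 3 of the 6, were higher in each treated library than in untreated cells, beside 12.6% of all genes with both treatments, 12.9% after Treg depletion and 8.0% with anti-CTLA4. None was past 1.5-fold between treated libraries, and none was lower in any of the 6 comparisons. Their sum ratio was 1.90 (1.87 to 1.94) for both treatments over untreated, 2.02 (1.98 to 2.06) for Treg depletion over untreated and 1.72 (1.69 to 1.75) for anti-CTLA4 over untreated. Without H2afz those ratios were 1.11, 1.13 and 1.30, so most of the difference lay in H2afz.

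Clustered histone genes were several times higher in cells that carried genes of DNA synthesis or mitosis than in the cells beside them. To see this, each cell was thinned to 1000 UMIs and sorted by a list of 39 S genes and one of 51 G2M genes, none of them a histone gene, with cells under that depth left out. The lists as first drawn put 81.5% of naive cells into G2M, at least 2 genes being enough, and between 85.6% and 90.2% of the cells of the other libraries, so they do not separate dividing cells. By them the cycling over the other cells gave 4.05 with both treatments, 6.65 after Treg depletion, 5.07 with anti-CTLA4, 1.51 in untreated and 0.993 in naive cells. The lists were therefore shortened, after these values had been seen, to the 15 S and 34 G2M genes that under 1% of thinned naive cells carry. A cell that carried 2 or more of the G2M genes, and no fewer than of the S genes, was called G2M, any other cell with 2 or more S genes was called S, and both are called cycling.

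By the shortened lists 1296 of 3959 cells were cycling with both treatments (32.7%), 902 of 2151 after Treg depletion (41.9%), 1278 of 4566 with anti-CTLA4 (28.0%), 66 of 1077 in untreated (6.13%) and 25 of 7825 in naive cells (0.319%). The naive share is low by construction, since the shortened lists keep only genes that few naive cells carry. Clustered genes summed to 5073 CPM in cycling and 1106 in remaining cells with both treatments, a ratio of 4.59 (4.48 to 4.70). After Treg depletion the values were 4628 and 592 CPM (7.82-fold), with anti-CTLA4 5532 and 649.7 CPM (8.51-fold) and in untreated cells 3756 and 673 CPM (5.58-fold). Without thinning before the classes were drawn, the untreated ratio was 2.60. With thinning the ratio was lowest with both treatments, where the remaining cells had the highest level. Cycling cells were also deeper, with a median of 5744 against 2246 UMIs with both treatments, 10198 against 3996 after Treg depletion, 9383 against 4099.5 with anti-CTLA4 and 5181.5 against 3097 in untreated cells.

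**Figure D2:**
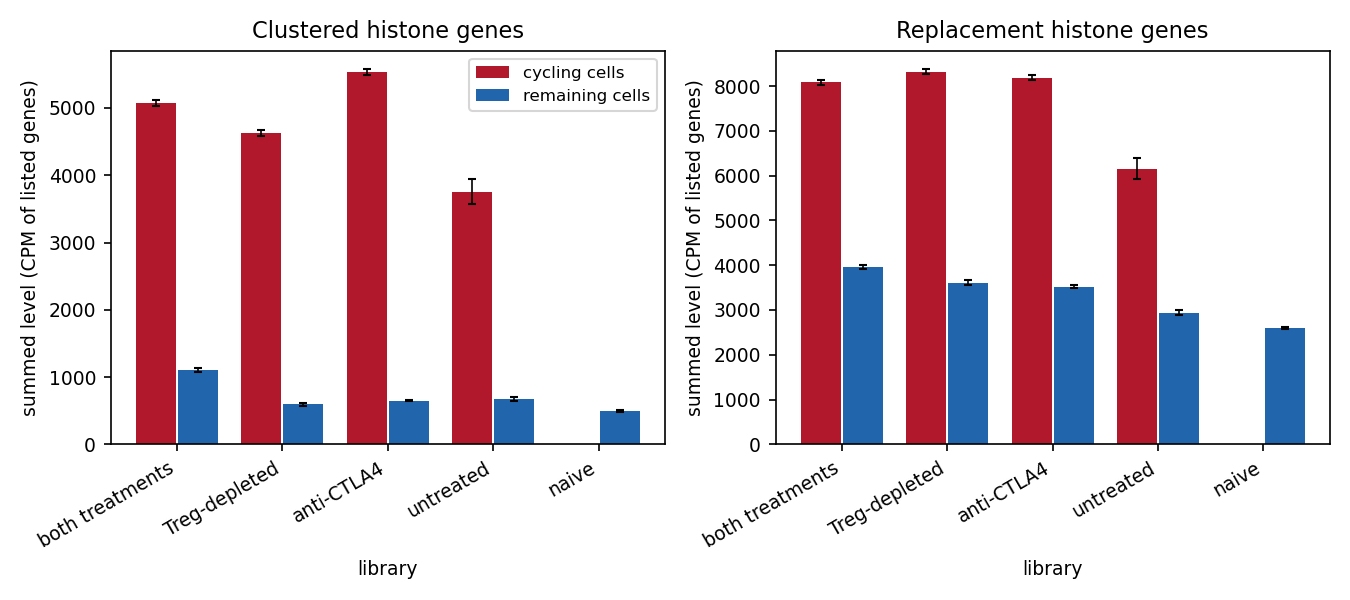
Summed level of clustered and of replacement histone genes in CPM, in cycling and remaining cells of each library, with exact 95% Poisson intervals for counting error; bars start at 0, and naive cycling cells are not drawn because 25 were found. Clustered genes had 1106 CPM in remaining cells with both treatments and 592 CPM in those after Treg depletion.

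With both treatments 40 of 45 clustered genes past the filters were higher in cycling than in remaining cells (13.5% of all genes) and 1 lower, Hist3h2a (34.6% of all genes). After Treg depletion 43 of 45 clustered genes past the filters were higher in cycling than in remaining cells (14.2% of all genes) and 0 lower (28.5% of all genes). With anti-CTLA4 42 of 45 clustered genes past the filters were higher in cycling than in remaining cells (8.97% of all genes) and 0 lower (18.0% of all genes). In the untreated library, with 66 cycling cells, 25 of 30 were higher (9.89% of all genes) and 1, Hist3h2a, lower (20.1% of all genes). The median log2 ratio lay between 2.37 and 2.55 in the 4 libraries, beside -0.27 to -0.14 over all genes. By type, H2A had the highest ratio in each library, 7.27 with both treatments, 16 after Treg depletion, 21.7 with anti-CTLA4 and 13.5 in untreated cells. H4 had 4.13, 5.28, 4.64 and 3.49 in the same order, and H1 3.82, 7.18, 4.60 and 3.16.

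Single genes ranged widely. Hist1h1b had 1073 CPM in cycling and 45.6 in remaining cells with both treatments, 899 and 20.0 after Treg depletion, 567 and 17.9 with anti-CTLA4, and 347 and 8.92 in untreated cells. That is 23.5 (21 to 26.4), 45.0 (37.3 to 54.7), 31.6 (28.0 to 35.9) and 38.9 (26.2 to 59.6) times as much. The other linker histone genes had lower ratios. Hist1h1e had 439 CPM in cycling and 217 in remaining cells with both treatments, 389 and 102 after Treg depletion, 287 and 118 with anti-CTLA4, and 229.8 and 133 in untreated cells, and Hist1h1d had ratios of 3.20, 6.82, 3.73 and 4.28 in that order of libraries. Hist1h1c had ratios of 1.01, 1.70, 1.42 and 1.26, and with both treatments its 178 CPM in cycling and 176 in remaining cells did not differ beyond counting error (1.01 (0.939 to 1.09)). These H1 genes thus ranged from Hist1h1b, at least 23.5 times as high in cycling cells in each of the 4 libraries, to Hist1h1c, within 1.5-fold in 3 of them.

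Of the H2A genes, Hist1h2ae had 297 CPM in cycling and 20.9 in remaining cells with both treatments, 635 and 18.9 after Treg depletion, 977 and 24.5 with anti-CTLA4, and 638 and 15.2 in untreated cells. Hist1h2ap had 48.2 CPM in cycling and 4.03 in remaining cells with both treatments, 302 and 8.04 after Treg depletion, 1314 and 30.9 with anti-CTLA4, and 354 and 11.3 in untreated cells. In each library both had over 10 times the level in cycling cells, and inside the cycling cells both were highest with anti-CTLA4 and lowest with both treatments. Hist1h2ab had cycling over remaining ratios of 23.8, 35.9, 59.8 and 49.8, and Hist2h2ac of 5.45, 8.54, 5.52 and 3.09. Of the other core histones, the ratios in that order were 12.0, 13.9, 17.6 and 39.4 for Hist1h2bm, 7.86, 5.74, 13.9 and 15.9 for Hist1h2bj and 2.51, 3.02, 3.42 and 1.77 for Hist1h2be. Hist1h3c had 13.4, 13.7, 25.4 and 53.1 and Hist1h3e 4.54, 7.99, 5.88 and 7.83. Hist1h4d had 6.25, 8.03, 5.48 and 4.09 and Hist1h4i 4.62, 3.78, 4.26 and 5.27. Hist3h2ba, 1 of the 3 genes whose highest library value was in naive cells, had 0.895, 1.32, 1.31 and 1.28, within 1.5-fold in each library.

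Replacement genes divided by the same measure. H2afx had 569 CPM in cycling and 114 in remaining cells with both treatments, 669 and 92.5 after Treg depletion, 763 and 178 with anti-CTLA4, and 302 and 155 in untreated cells. Its ratios were higher than those of the other replacement genes past the filters in the treated libraries. H2afz had cycling over remaining ratios of 2.81, 3.23, 3.70 and 3.76, H2afv of 1.52, 1.78, 2.19 and 2.52 and H1f0 of 1.88, 1.43, 0.868 and 1.13. H2afy had 1.03, 1.15, 1.04 and 0.990 and H2afj 0.802, 0.775, 0.968 and 0.929, within 1.5-fold in each library. The replacement sum was 2.04, 2.30, 2.32 and 2.10 times as high in cycling as in remaining cells, and 1.32, 1.46, 1.54 and 1.40 times without H2afz.

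**Figure D3:**
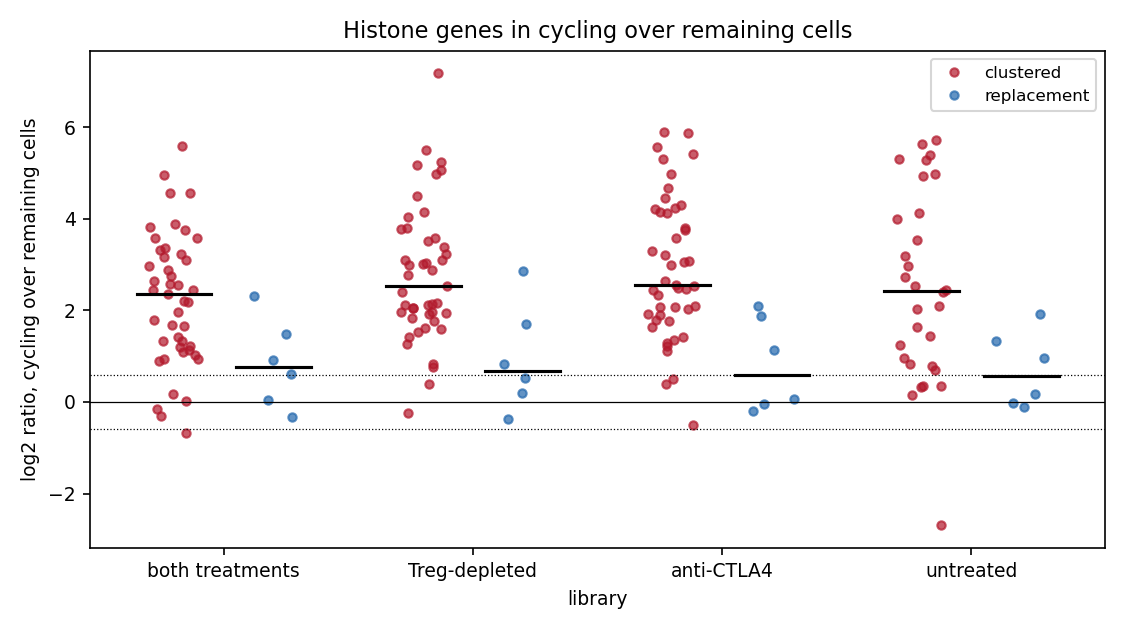
Log2 ratio of cycling over remaining cells for each histone gene past the filters, by library, clustered beside replacement genes; each point is a gene, the bar is the median of the points and the dotted lines mark 1.5-fold. Medians of the clustered points lie between 2.37 and 2.55.

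Within the cycling cells, those called S carried fewer clustered histone transcripts than those called G2M. The sums were 3484 CPM in 112 S cells and 5198 in 1184 G2M cells with both treatments, 3019 in 77 and 4783 in 825 after Treg depletion, and 2555 in 213 and 6114 in 1065 with anti-CTLA4. Of 45 clustered genes, 22 were lower in S with both treatments (10.1% of all genes), 23 after Treg depletion (10.1%) and 42 with anti-CTLA4 (7.18%). The S over G2M ratio of Hist1h1b was 0.769 with both treatments, 0.666 after Treg depletion and 0.507 with anti-CTLA4, and that of Hist1h2ab 0.445 with both treatments, 0.385 after Treg depletion and 0.238 with anti-CTLA4. For H2afx it was 0.364 with both treatments, 0.311 after Treg depletion and 0.353 with anti-CTLA4, whereas H2afy had 1.04 with both treatments, 1.05 after Treg depletion and 1.12 with anti-CTLA4. A cell with genes of both lists counts as G2M unless it has more S genes, and the shortened lists hold 34 G2M but 15 S genes. The G2M cells can thus include cells that copy DNA. The name of a class says which listed genes it carries and no more.

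The clustered sum differed less between treated and untreated libraries inside the cycling cells, and inside the remaining cells, than over all cells. Over all cells the ratio to untreated was 3.28 (3.17 to 3.39) with both treatments, 3.12 (3.02 to 3.22) after Treg depletion and 2.82 (2.74 to 2.92) with anti-CTLA4. Within cycling cells it was 1.35 (1.29 to 1.42), 1.23 (1.17 to 1.29) and 1.47 (1.40 to 1.55) in that order. Within remaining cells it was 1.64 (1.57 to 1.72), 0.880 (0.834 to 0.928) and 0.965 (0.922 to 1.01), and with at least 3 list genes asked of a cycling cell it was 1.77, 1.03 and 1.03.

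**Figure D4:**
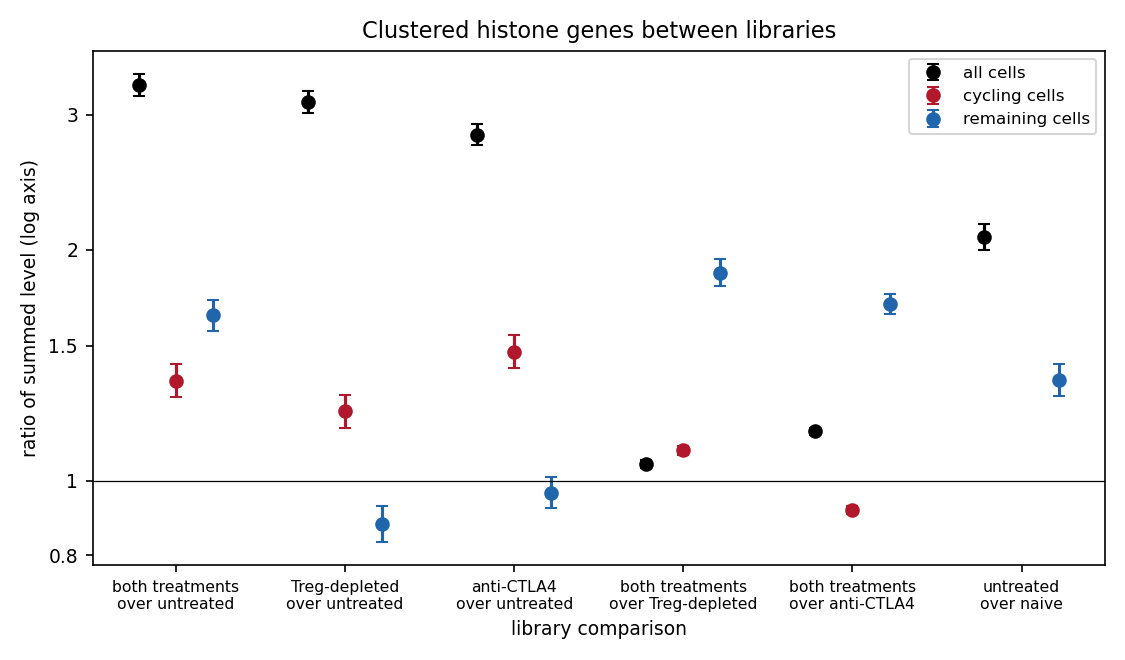
Ratio of the clustered histone sum between libraries on a log axis, over all cells, within cycling and within remaining cells, for 6 comparisons; bars are exact 95% counting intervals, and untreated over naive has no value within cycling cells. For both treatments over Treg depletion the remaining cells lie at 1.87 and all cells at 1.05, which is 0.974 with TMM scaling.

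Within cycling cells, for both treatments over untreated, 24 of 45 clustered genes were higher (15.3% of all genes) and 6 lower, Hist1h2ap, Hist1h2ae, Hist1h2br, Hist1h2bh, Hist1h2bc and Hist2h2be (28.8% of all genes). For Treg depletion over untreated, 9 of 45 clustered genes were higher (14.3% of all genes) and 8 lower (31.3% of all genes). For anti-CTLA4 over untreated, 11 of 45 clustered genes were higher (10.6% of all genes) and 4 lower, Hist4h4, Hist1h2bk, Hist1h2ag and Hist1h3a (14.6% of all genes). The untreated side rests on 66 cells. Hist1h1b had ratios over untreated cycling cells of 3.09 (2.64 to 3.65), 2.59 (2.21 to 3.06) and 1.63 (1.39 to 1.93) in that order. Hist1h2ap had 0.136 (0.114 to 0.164), 0.853 (0.726 to 1.01) and 3.71 (3.17 to 4.37). At matched class Hist1h1b was thus higher in all 3 treated libraries, and Hist1h2ap was lower with both treatments, within 1.5-fold after Treg depletion and higher with anti-CTLA4. H2afx stayed higher within cycling cells, at 1.88, 2.22 and 2.53, and H2afz at 1.66 and 1.71 with both treatments and after Treg depletion; with anti-CTLA4 H2afz had 1.46, within 1.5-fold. H2afv had 0.584, 0.592 and 0.977.

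Within cycling cells the sum for both treatments was 1.10 (1.08 to 1.11) of that after Treg depletion and 0.917 (0.906 to 0.928) of that with anti-CTLA4. Hist1h2ap alone was at 0.160 and 0.0367, and Hist1h2ae at 0.467 and 0.304. Without the pair the sums were at 1.28 and 1.46, so the second turns its direction. It also turned, to 1.12, when all genes with shared ends were left out.

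The remaining cells of the library with both treatments had the highest clustered level of the 5 libraries. Their clustered sum of 1106 CPM compared with 592 after Treg depletion, 649.7 with anti-CTLA4, 673 in untreated and 497 in naive cells. Over Treg depletion that is 1.87 (1.79 to 1.95), and 29 of 40 clustered genes past the filters were higher (14.7% of all genes) and 1, Hist1h2ap, lower (4.08% of all genes), with a median log2 ratio of 0.98 beside 0.11 over all genes. All types were higher, from 1.54 for H2B to 2.22 for H1. In these cells Hist1h1e had 217 CPM with both treatments and 102 CPM after Treg depletion, or 2.14 (1.94 to 2.36). Hist1h1c had 176 CPM with both treatments and 81.6 CPM after Treg depletion, or 2.16 (1.94 to 2.41). Both had cycling over remaining ratios near those of the replacement sum or below them in that library. Hist1h1b had 45.6 CPM with both treatments and 20.0 CPM after Treg depletion, or 2.28 (1.83 to 2.86). Hist1h4d had 67.1 CPM with both treatments and 39.3 CPM after Treg depletion, or 1.71 (1.45 to 2.01), and Hist1h3e 27.2 CPM with both treatments and 10.2 CPM after Treg depletion, or 2.67 (1.98 to 3.66). The replacement sum did not follow, at 1.09 (1.07 to 1.11), with 0 of 6 genes past 1.5-fold (14.7% of all genes higher and 4.08% lower). These cells had a median of 2246 UMIs, the lowest of the 4 lymph node libraries, and 384 cells under 1000 UMIs had been left out of that library; the part of depth in the difference was not tested.

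Cell by cell, clustered transcripts were unevenly spread. After thinning, a cell had on average 2.36 clustered UMIs per 1000 with both treatments, 2.24 after Treg depletion, 1.84 with anti-CTLA4, 0.890 in untreated and 0.498 in naive cells. At least 5 were found in 14.5% (13.5 to 15.7) of cells with both treatments, 15.1% (13.6 to 16.7) after Treg depletion, 8.80% (8.00 to 9.66) with anti-CTLA4, 1.95% (1.21 to 2.97) in untreated and 0.0895% (0.0360 to 0.184) in naive cells. Without thinning those shares were 35%, 45.1%, 37.1%, 16% and 0.842% in that order. The fullest cells held 43, 70, 44, 23 and 8 clustered UMIs per 1000. G2M cells carried 63.7% of the thinned clustered UMIs with both treatments, 79.5% after Treg depletion, 67.9% with anti-CTLA4 and 17.4% in untreated cells. Of the remaining cells, 61.4% (59.5 to 63.3) had at least 1 clustered UMI with both treatments, against 41.7% after Treg depletion, 45.2% with anti-CTLA4, 46.8% in untreated and 37.0% in naive cells, and at least 5 were found in 2.44% (1.89 to 3.10), against 0.240% (0.0496 to 0.700) after Treg depletion. Without thinning the shares in the treated libraries were 84.6%, 79.7% and 84.9%.

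Foxp3 status could be compared in the libraries with Treg depletion, where 1649 of 4343 cells with both treatments and 1284 of 2186 cells with depletion alone had a Foxp3 UMI (38% and 58.7%), and such cells are called Foxp3-positive here. As a background, B cells should lack the gene: cells with at least 2 of the 7 B cell markers, which can include doublets with T cells, had a Foxp3 UMI in 6 of 14 and 15 of 33 cases in that order of libraries. Of cells with at least 3 B cell markers, a limit set after these values had been seen, 0 of 6 and 0 of 10 had one, at a median of 9474.5 and 19283 UMIs against 2468 and 5208.5 over all cells. Those counts of 0 allow a share of up to 45.9% and 30.8% of so few cells (exact binomial) and a Foxp3 level of up to 45.9 and 14.4 CPM (3 UMIs), against the library levels of 348 and 379 CPM. Free RNA as a source of single Foxp3 UMIs was not tested further. Clustered genes summed to 4206 CPM in Foxp3-positive and 2056 in Foxp3-negative cells with both treatments (2.05 (2.01 to 2.09)), and to 3572 and 2404 CPM after Treg depletion (1.49 (1.46 to 1.52)). With both treatments, 28 of 45 clustered genes past the filters were higher in Foxp3-positive cells (12.5% of all genes) and 2, Hist2h2be and Hist3h2a, lower (34.1% of all genes). At matched class the ratios were nearer to 1. Within cycling cells the sums were 5180.3 and 4531 CPM with both treatments (1.14 (1.12 to 1.17)) and 4611 and 4695 after Treg depletion (0.982 (0.961 to 1.00)). Within remaining cells they were 989 and 1168 (0.847 (0.807 to 0.889)) and 605 and 578 (1.05 (0.979 to 1.12)).

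**Figure D5:**
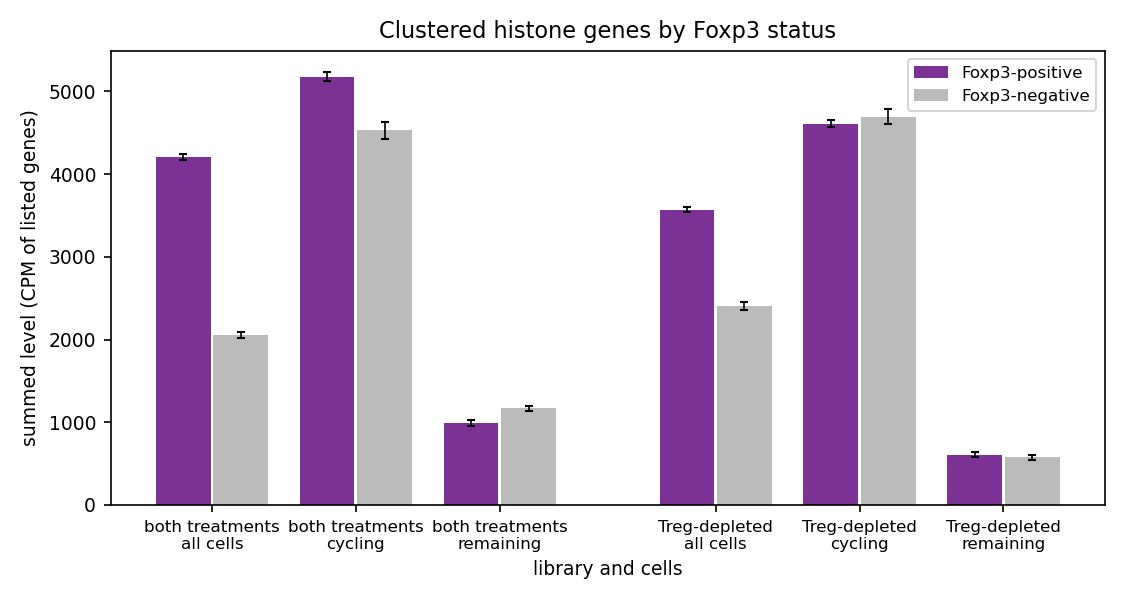
Summed clustered histone level in CPM in Foxp3-positive and Foxp3-negative cells, over all, cycling and remaining cells of the library with both treatments and the Treg-depleted library; bars start at 0 and carry exact 95% Poisson intervals for counting error. The groups differ most over all cells, at 4206 and 2056 CPM with both treatments.

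Foxp3-positive cells were more often cycling, 57.3% (54.9 to 59.8) of 1605 against 16% (14.5 to 17.5) of 2354 with both treatments and 53.6% of 1272 against 25% of 879 after Treg depletion. They were also deeper, with medians of 4730 against 2127.5 and 6676.5 against 3900 UMIs, and a deeper cell is more likely to show a Foxp3 UMI. With Foxp3 read from the 1000 thinned UMIs, 48.0% (44.5 to 51.5) of 813 against 28.8% of 3146 were cycling with both treatments, and 42.6% of 639 against 41.7% of 1512 after Treg depletion. The clustered ratio by that reading was 1.09 with both treatments (0.965 within cycling cells) and 0.946 over all cells after Treg depletion. In the anti-CTLA4 library 54 cells had a Foxp3 UMI, with 4114 CPM against 2900.3 in the others, and in the naive library 72 cells, with 453 against 498 CPM. The clustered difference by Foxp3 status was thus smaller or turned in both libraries with Treg depletion when Foxp3 was read at the lower depth. That reading kept 813 of the 1605 and 639 of the 1272 cells as Foxp3-positive and counted the rest of them as negative. The part of this mixing in the change was not tested.

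By gene, Hist1h1b was 3.45 (3.27 to 3.64) times as high in Foxp3-positive as in Foxp3-negative cells with both treatments, 1.27 (1.20 to 1.35) times within cycling cells and 1.45 (1.15 to 1.82) times within remaining cells. Hist1h1c ran the other way in the remaining cells, at 0.573 (0.500 to 0.655), and Hist1h1e likewise at 0.688 (0.612 to 0.772). After Treg depletion Hist1h1c had 1.16 (0.960 to 1.40) and Hist1h1e 1.04 (0.876 to 1.23). Hist1h3c was at 2.86 (1.93 to 4.28) with both treatments and 2.30 (1.36 to 4.01) after Treg depletion in remaining cells. Of the replacement genes, H1f0 was at 2.16 (1.82 to 2.57) in the remaining cells with both treatments and 1.16 (0.976 to 1.39) after Treg depletion. H2afx was lower in Foxp3-positive remaining cells of both libraries, at 0.615 (0.520 to 0.724) and 0.646 (0.540 to 0.772), while H2afv was within 1.5-fold, at 0.675 (0.624 to 0.730) and 0.821 (0.755 to 0.892). H2afj had 0.810 (0.779 to 0.842) over all cells with both treatments and 0.665 (0.638 to 0.692) after Treg depletion, and H2afy 1.00 (0.963 to 1.04) and 1.08 (1.04 to 1.13).

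Genes with shared ends held 35.8% of all clustered UMIs with both treatments, 34.6% after Treg depletion, 46.2% with anti-CTLA4, 36.8% in untreated and 20.2% in naive cells. Their sum ratio and that of the 26 clustered genes without shared ends were 3.19 and 3.33 for both treatments over untreated, and 2.93 and 3.22 for Treg depletion over untreated. They differed more for anti-CTLA4 over untreated, at 3.55 (3.37 to 3.74) and 2.40 (2.31 to 2.50), and lay on either side of 1 for both treatments over anti-CTLA4, at 0.898 (0.883 to 0.913) and 1.39 (1.37 to 1.41). Hist1h2ap is among the genes with shared ends. Within remaining cells, both treatments over Treg depletion gave 1.81 with and 1.90 without shared ends.

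The 20 genes whose annotated end runs over 100 bases past the stem-loop, Hist1h1c, Hist1h1d, Hist1h1e and Hist1h4d among them, held 47.8% of clustered UMIs with both treatments, 47.8% after Treg depletion, 45.1% with anti-CTLA4, 65.2% in untreated and 81.9% in naive cells. Those with an end within 100 bases held 23.3%, 25.5%, 37.6%, 21.3% and 8.93% in the same order. The long-ended genes thus took the largest share in the naive library, where few cells were called cycling by lists shortened on those same cells. By class, the long-ended share was 43.7% in cycling and 72.0% in remaining cells with both treatments, and 41.8% and 69.8% with anti-CTLA4. By position on chromosome 13, the 21 genes between 21715763 and 22043676, which include Hist1h1b and Hist1h2ap, summed to 11.1, 13.7, 19.4 and 15.8 times as much in cycling as in remaining cells with both treatments, after Treg depletion, with anti-CTLA4 and in untreated cells, and the 28 between 23531050 and 23764406, which include Hist1h1c, Hist1h1e and Hist1h2ae, to 3.47, 6.47, 6.36 and 4.72 times. A few abundant genes weigh most in these sums. The median log2 ratio over the genes past the filters was 3.13, 3.48, 3.77 and 4.92 for the first block (12, 12, 12 and 7 genes) and 2.07, 2.28, 2.54 and 2.32 for the second (24, 24, 24 and 16 genes), and single genes of the second block, such as Hist1h2ab at 23.8 to 59.8 times, were above the sum of the first.

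Histones reach DNA with the help of chaperones, and their transcripts need a processing machinery of their own; 45 of 47 genes listed for these roles are in the tables. Against untreated cells, 12 of the 45 were higher and 0 lower with both treatments (12.6% and 22.5% of all genes), 15 higher and 4 lower after Treg depletion (12.9% and 33.8%), and 11 higher and 0 lower with anti-CTLA4 (8.0% and 9.87%). Asf1b, a chaperone that carries new H3 and H4, was 5.31 (4.47 to 6.35), 6.60 (5.55 to 7.89) and 5.08 (4.28 to 6.07) times as high in that order, and Chaf1a, of the complex that loads them behind the replication fork, 4.32, 5.48 and 4.33 times. Both led the list in each of these comparisons. In cycling over remaining cells, 22 were higher and 3 lower with both treatments (13.5% and 34.6% of all genes), 27 and 1 after Treg depletion (14.2% and 28.5%), 19 and 1 with anti-CTLA4 (8.97% and 18.0%) and 17 and 1 in untreated cells (9.89% and 20.1%). Asf1b again led, with 11.8, 13.9, 13.5 and 12.9. Cabin1, a subunit of a complex that places H3 outside replication, had 0.588, 0.688 and 0.747 in the treated libraries and was among the 3 lowest there. No listed gene was past 1.5-fold between both treatments and Treg depletion (9.24% of all genes higher and 1.58% lower). The median log2 ratio of the list there was -0.08, beside 0.38 for the clustered genes and 0.07 over all genes.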

How the data were processed

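Single-cell RNA of sorted SMARTA CD4 T cells was measured in 5 libraries, 1 per group. The deposited tables hold whole-number UMI counts per gene and cell. The tools that the authors named, per the submitters' processing notes, were bcl2fastq 2.20, Cell Ranger 6.0.0, R 4.1.1 and Seurat 4.0.4, with the mm10 build; their roles and the treatment of reads that map to several genes are not given in the sources used here. Cells needed 200 genes and at most 10% mitochondrial UMIs, which removed 0 of 20149. Doublets were not called.

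Counts were summed per library or cell class and scaled to CPM over the 11924 listed genes, which leave out many abundant genes. A ratio has a Clopper-Pearson interval of the conditional binomial, a CPM value a Poisson one and a share of cells a binomial one, all exact, at 95% and for counting error only. A count of 0 was set to 3 UMIs, and 1 UMI was worth between 0.0358 and 0.261 CPM. Thinning to 1000 UMIs left out 384 cells with both treatments, 35 after Treg depletion, 0 with anti-CTLA4, 22 untreated and 130 naive. The computation was tested on simulated data. Coordinates, transcript ends and stem-loops came from GENCODE M21 (GRCm38, the assembly named mm10 by the authors' notes), where 67 of 67 genes matched by symbol. Promoters came from RefSeq (GRCm38.p6), matched by gene identifier or else by symbol. A promoter with its start in the GENCODE gene or within 500 bases of it was found for 60 genes. Histone genes that reached 50 CPM in a library are given in every library. The members and lists were chosen with earlier results of these data known, and the shortened S and G2M lists after seeing the classes that the full lists gave. Alternatives were TMM (edgeR 4.0.16) and median-of-ratios scaling, other filters, folds, depths and list limits, and cells or genes left out. Python 3.11.15, numpy 2.4.6, scipy 1.17.1, pandas 2.3.3 and R 4.3.3 were used.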

Additional observations from a re-analysis of the deposited data

Results flagged for a closer look

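Hist1h2ap and Hist1h2ae moved in opposite directions with the antibody, according to whether Tregs had been depleted. For Hist1h2ap the log2 ratio was -2.75 for both treatments over Treg depletion and 3.62 for anti-CTLA4 over untreated, which differ by 6.37. For Hist1h2ae it was -1.24 and 2.42, which differ by 3.65. With 1 library per group this difference was not tested. Of 9725 genes that could be compared, 69 (0.71%) were past 1.5-fold lower in the first and higher in the second comparison, and 384 the other way round. Every word in the end of Hist1h2ap also occurs in transcripts of other genes, and no word in the last 100 bases of Hist1h2ae does. The part of read assignment in either value was not tested.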

How the results depend on the processing

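Clustered sums and the counts of clustered and of replacement genes were recomputed under each alternative, and replacement sums were not. The share of all genes past the limit was not recomputed either. Counts under changed settings thus have no such share beside them and only show how the count moves. Of the recomputed sums and counts, 277 stayed within 1.5 times of a count or within counting error of a sum, and 113 moved beyond that. Of single histone genes, 121 stayed and 65 did not. Of the 126 recomputed sum ratios, 9 fell on the other side of 1, none of them from a value past 1.5-fold. They were both treatments over Treg depletion with either scaling (1.05, to 0.974 and 0.972), both treatments over anti-CTLA4 in cycling cells without shared ends (0.917, to 1.12), Treg depletion and anti-CTLA4 over untreated in remaining cells at 3 list genes (0.880 and 0.965, to 1.03 each), the naive ratio by the full lists at 500 UMIs and without thinning (0.993, to 1.00 and 1.06) and, with Foxp3 read after thinning, the Foxp3 ratio after Treg depletion (1.49, to 0.946) and that in cycling cells with both treatments (1.14, to 0.965). Of 186 ratios of single genes 5 crossed 1: 4 of Hist1h1b for both treatments over Treg depletion (1.07, to between 0.934 and 0.990) and 1 of Hist1h2ap, given below. Counting error is small in sums of so many UMIs, so many of the moves are small. What limits the values is 1 library per group, 66 cycling untreated cells and reads that fit several genes. The causes of the moves were not tested, except that leaving out genes or raising a limit lowers counts by construction. No paired analysis was possible because each group has 1 library; for the same reason no library could be left out.

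Scaling moved the median of all genes by over 0.1 (log2): with TMM and median-of-ratios by 0.16 and 0.19 for both treatments over untreated, 0.28 and 0.31 for Treg depletion over untreated and -0.11 and -0.11 for both treatments over Treg depletion, and with median-of-ratios by 0.10 for both treatments over anti-CTLA4. The clustered sum ratio then became 3.67 and 3.75 for both treatments over untreated, 3.77 and 3.86 for Treg depletion over untreated, 3.0 and 3.01 for anti-CTLA4 over untreated, 1.22 and 1.25 for both treatments over anti-CTLA4, and 0.974 and 0.972, past 1 to the other side, for both treatments over Treg depletion. With either scaling 0 clustered genes were lower after Treg depletion than in untreated cells.

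With the mean of single-cell CPM the clustered sum ratio was 2.54, 2.42 and 1.98 for both treatments, Treg depletion and anti-CTLA4 over untreated, 1.28 for both treatments over anti-CTLA4 and 1.83 for untreated over naive cells. Clustered genes that were lower numbered 0 for both treatments over untreated and 1 for anti-CTLA4 over untreated, replacement genes lower 1 for both treatments over anti-CTLA4, and replacement genes higher 1 for untreated over naive. Without the 5% of cells with the most UMIs the sum ratios were 3.60 and 3.58 for both treatments and Treg depletion over untreated, 1.01 and 1.28 for both treatments over Treg depletion and over anti-CTLA4, and 1.67 for untreated over naive, where 16 clustered and 2 replacement genes were higher. In both treatments over untreated 0 clustered genes were then lower, and Hist1h2ap reversed, from a ratio of 0.583 over all cells to 1.05. Without cells that carry 2 markers of another cell type the sum ratio was 2.90 for Treg depletion over untreated and 1.11 and 1.14 for both treatments over Treg depletion and over anti-CTLA4.

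Without genes that share ends, 20, 14 and 14 clustered genes were higher for both treatments, Treg depletion and anti-CTLA4 over untreated, 6 and 13 for both treatments over Treg depletion and over anti-CTLA4, and 12 for untreated over naive; 0 were lower for both treatments over untreated, and 1 each for both treatments over Treg depletion and over anti-CTLA4. The sum ratios were 3.22 and 2.40 for Treg depletion and anti-CTLA4 over untreated, 1.03 and 1.39 for both treatments over Treg depletion and over anti-CTLA4, and 1.65 for untreated over naive. Within cycling cells they were 1.44, 1.33 and 1.28 over untreated in the order used above, and 1.08 and 1.12 for both treatments over Treg depletion and over anti-CTLA4, the last past 1 to the other side. Within remaining cells they were 0.899 for anti-CTLA4 over untreated, 1.77 for both treatments over anti-CTLA4 and 1.11 for untreated over naive. Without Hist1h1b the sums gave 2.80, 2.67 and 2.68 over untreated, 1.04 for both treatments over anti-CTLA4 and 1.99 for untreated over naive, and within cycling cells 1.17 and 1.09 for both treatments and Treg depletion over untreated and 1.07 and 0.805 for both treatments over Treg depletion and over anti-CTLA4.

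With the minimum mean raised to 25 CPM, 16, 15 and 14 clustered genes were higher over untreated, 3 and 11 for both treatments over Treg depletion and over anti-CTLA4, and 14 for untreated over naive, with 0 lower there and 0 for Treg depletion over untreated. With no mean filter 19 were higher and 5 lower for both treatments over Treg depletion, 6 lower for both treatments over anti-CTLA4 and 2 lower for both treatments over untreated; replacement genes gave 1 higher in each of the first pair of comparisons and 1 lower for Treg depletion over untreated and for untreated over naive. At a limit of 2-fold, 4 and 8 clustered genes were higher for both treatments over Treg depletion and over anti-CTLA4, 0 lower for both treatments or Treg depletion over untreated, and 1 replacement gene higher for untreated over naive.

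The cycling over remaining ratio was 4.06 with both treatments, 5.82 after Treg depletion and 7.58 with anti-CTLA4 when cells were thinned to 500 UMIs, and 3.76, 7.31, 6.08 and, in untreated cells, 2.60 without thinning. With genes in up to 2% of naive cells it was 7.90 with anti-CTLA4 and 4.27 in untreated cells, and with at least 3 list genes 7.12 after Treg depletion and 9.19 with anti-CTLA4. By the full lists it was 3.73, 5.67 and 1.87 with both treatments, with anti-CTLA4 and in untreated cells at 500 UMIs, 2.38 with both treatments without thinning and 5.58 with anti-CTLA4 at 3 list genes, and the shortened lists gave 4.59, 7.82, 8.51 and 5.58 in place of the full ones. At 3 list genes the sums within remaining cells were 1.77, 1.03 and 1.03 over untreated and 1.73 for both treatments over Treg depletion, and within cycling cells 0.849 for both treatments over anti-CTLA4. With Foxp3 read after thinning, Foxp3-positive over Foxp3-negative cells gave 1.09 and 0.946 over all cells with both treatments and after Treg depletion and 0.965 within cycling cells with both treatments, and with 2 Foxp3 UMIs asked for that last ratio was 1.11.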
